A study of Mus musculus with 3 samples.

Results

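The iron and metal handling genes described here are 10 genes, *Lcn2*, *Slc40a1*, *Hamp*, *Tfrc*, *Slc11a2*, *Slc39a14*, *Slc11a1*, *Fth1*, *Mt1* and *Mt2*, which were found by their symbols among the gene probes of the microarray. They were measured by 17 probes, each on 1 spot, out of 56605 gene probes for 26425 gene symbols. RNA of RAW macrophages, a mouse macrophage line that grows as a single transformed line, was hybridised in 1 colour to 3 arrays. The cells of the LPS array received 50 ng/mL of LPS, the TLR4 agonist, and no lactobacilli. Those of the CRL1505 + LPS array were first kept for 24 h with *L. rhamnosus* CRL1505 at 50000000 cells/mL, and those of the CRL1506 + LPS array with *L. plantarum* CRL1506 at the same density, before the lactobacilli were washed off and LPS was added. All 3 conditions thus had LPS, for 12 h according to the series' design and for 3 h according to the descriptions of the samples, and cells without LPS were not analysed here.

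There was 1 array per condition, so the differences below could not be checked against replicates and come without tests. LPS alone and CRL1506 + LPS shared a slide and a scan date. CRL1505 + LPS was hybridised to a separate slide, and whether its scan date differed was not examined. For every value that involves CRL1505 + LPS, strain and slide cannot be told apart. Both comparisons with LPS use the same LPS array. Signals are given as multiples of the 75th percentile of each array, which puts the arrays on 1 scale. They may be compared between arrays for the same probe but not between probes. Sums over the markers of a list are likewise meant for comparison between arrays only, and the brightest probes weigh most in them. Ratios are log2 differences between arrays, and a gene was counted as higher or lower from 2-fold on. Over probes spotted 10 times, the SD of the log2 ratio between spots had a median of 0.048 for CRL1505 against LPS and 0.043 for CRL1506 against LPS, which covers the error within an array. The SD between different probes of a gene had a median of 0.228 and 0.214, respectively, and 0.322 between the strains. Neither SD holds the variation between cultures, slides or hybridisations. All 8 macrophage markers examined were well above background on every array, with summed signals of 712, 676 and 571 for LPS, CRL1505 + LPS and CRL1506 + LPS. Of these, *Adgre1* was higher and *Csf1r* lower with the lactobacilli, with log2 ratios of 2.27 and -1.47 for CRL1505 and 1.003 and -0.87 for CRL1506. The other markers stayed within 2-fold of LPS with both strains. Over all 8 markers, 5 had ratios above 0 for CRL1505 and 2 for CRL1506. The cultures were of a single line, so these ratios are averages over its cells. In bulk RNA, fewer cells expressing a gene and less RNA per cell cannot be told apart.

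Macrophages take in iron as transferrin through the transferrin receptor and as heme from engulfed red cells, move it out of vesicles through divalent metal transporters, store it in ferritin and release it through ferroportin, the only known iron exporter of mammalian cells. Hepcidin, a peptide hormone made mainly in the liver, binds ferroportin and causes its degradation. During infection, inflammatory signals are known to keep iron inside macrophages and away from microbes in the blood, and lipocalin-2 binds the siderophores with which bacteria collect iron. Metallothioneins bind zinc and copper.

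Of these genes, *Lcn2* and *Slc40a1* passed 2-fold against LPS alone. *Lcn2*, which encodes lipocalin-2, was 15.1-fold higher than with LPS alone after CRL1505 and 3.12-fold higher after CRL1506. *Slc40a1*, which encodes ferroportin, was 3.35-fold lower after CRL1505 and 1.35-fold lower after CRL1506. The ferritin heavy chain, both metallothioneins and the natural resistance transporter *Slc11a1* moved by less than 1.5-fold with either strain by their brightest probes. The signals of all genes by array are shown in the plot of scaled signals.

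**Figure D1:**
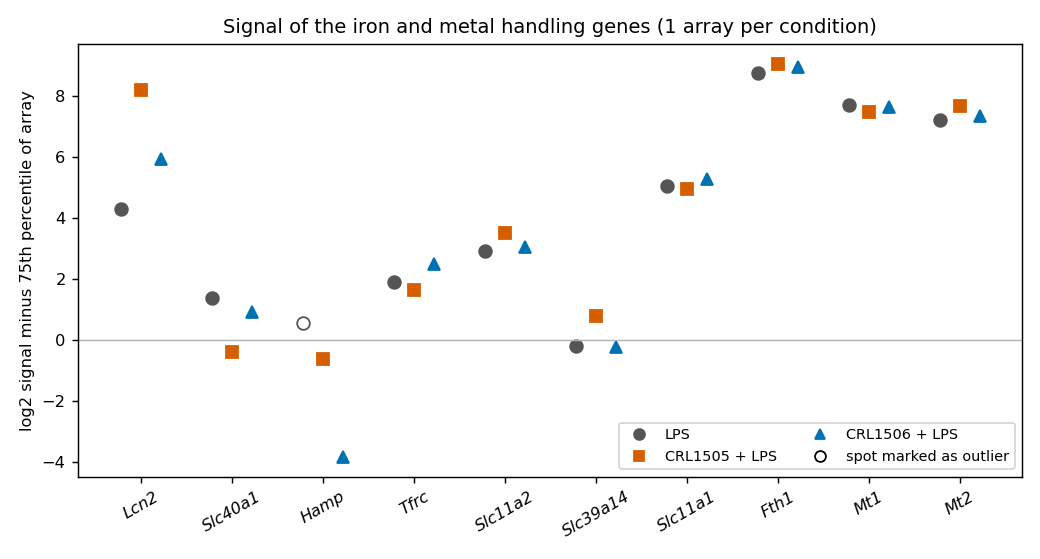
Scaled log2 signal of the brightest probe of each gene (log2 signal minus the 75th percentile of the array) on the LPS (circles), CRL1505 + LPS (squares) and CRL1506 + LPS (triangles) arrays, 1 array each, with no error bars. The open symbol is the LPS spot of *Hamp*, which the software marked as an outlier. Symbols may be compared within a gene only, and *Lcn2* and *Hamp* have the widest gaps between arrays.

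A pair of probe sequences is given, that of the second, dimmer *Lcn2* probe because it reads spliced RNA of this gene, and that of *Hamp* because the values of this gene rest on it alone. Each probe has 60 bases. The sequence of the brightest *Lcn2* probe is not printed. The *Lcn2* probe shown lies on the minus strand at chr2:32241037-32241281 of mm9, and its ends are 245 bases apart in the genome, so that it crosses an exon junction and matches spliced RNA. Of the *Hamp* probe, the first 54 bases are given, at chr7:31727496-31727549 on the minus strand of mm9. In their first reading frame they hold 17 codons, of which 7 encode cysteine, and then a stop codon, shown in capitals. Mature hepcidin is known for its many cysteines, which pair in disulfide bonds.
Lcn2 probe: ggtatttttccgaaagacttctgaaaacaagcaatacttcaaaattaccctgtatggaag
Hamp probe: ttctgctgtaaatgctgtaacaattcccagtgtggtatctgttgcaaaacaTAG

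*Lcn2*, the siderophore-binding protein, had the largest ratio to LPS among these genes with either strain. The signal of its brightest probe (chr2:32240199-32240258 on mm9, minus strand) was 19.3 with LPS alone, 293 after CRL1505 and 60.2 after CRL1506. The junction probe printed above gave 4.82, 88.2 and 11.7. With both probes the signal was lowest for LPS, intermediate for CRL1506 + LPS and highest for CRL1505 + LPS. The log2 ratio to LPS was 3.92 for CRL1505 and 1.64 for CRL1506 with the brightest probe, and 4.19 and 1.28 with the other. CRL1505 + LPS exceeded CRL1506 + LPS by 2.28 and 2.92, which is several times the SD between probes of a gene. That SD does not hold the variation between cultures or slides. Of 15437 genes compared for CRL1505, 39 had a higher ratio than *Lcn2*, and of 16103 compared for CRL1506, 351 did. Over 7 other normalizations the ratio of the brightest probe ran from 3.41 to 4.22 for CRL1505 and from 1.44 to 1.78 for CRL1506, so it passed 2-fold in all 7 with each strain. Of the 20 spots nearest to the junction probe, 3, 4 and 3 were uneven on the LPS, CRL1505 + LPS and CRL1506 + LPS arrays, meaning that their mean pixel signal exceeded the median by more than 0.2 on the log2 scale, whereas around the brightest probe it was 1, 0 and 0.

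*Slc40a1* went the other way. The signal of its brightest probe (chr1:45965255-45965314 on mm9, minus strand) was 2.56 with LPS alone, 0.764 after CRL1505 and 1.90 after CRL1506, lowest for CRL1505 + LPS and with LPS above both. Relative to LPS the log2 ratio was -1.75 for CRL1505, where 348 of the genes compared were lower still, and -0.43 for CRL1506. Between the strains it was -1.31 (CRL1505 + LPS against CRL1506 + LPS). The ratio for CRL1505 lay between -2.25 and -1.45 over the other normalizations and passed 2-fold in all 7, while that for CRL1506 lay between -0.63 and -0.34 and passed it in none. A second probe, annotated to another transcript of the gene, was well above background on the CRL1506 + LPS array only, with signals of 0.027, 0.017 and 0.066 for LPS, CRL1505 + LPS and CRL1506 + LPS. Taking the mean over both probes gave -1.20 for CRL1505 and 0.44 for CRL1506, so the direction for CRL1506 depends on a probe that was dim on the LPS array.

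*Hamp* encodes hepcidin, and its transcript was measured by the single probe printed above. Its signal was 1.45 with LPS alone, 0.641 after CRL1505 and 0.070 after CRL1506, lowest for CRL1506 + LPS. The LPS spot was marked as an outlier for uneven pixels, so no ratio to LPS was taken. If that spot is kept, the ratio comes to -1.18 on the log2 scale for CRL1505 and to -4.38 for CRL1506. Between CRL1505 + LPS and CRL1506 + LPS, whose spots were not marked, it was 3.20, and the other normalizations put it between 2.16 and 3.69. The spots of all 3 arrays were uneven, their mean exceeding their median pixel signal by 0.36, 0.22 and 0.49 on the log2 scale for LPS, CRL1505 + LPS and CRL1506 + LPS. Of the 20 nearest spots 5, 4 and 5 were uneven, compared with 3.49%, 1.53% and 2.51% of all spots of these arrays. When uneven spots were left out, *Hamp* had no value in any comparison, and the part of the unevenness in its difference between strains was not tested. The hepatocyte markers examined, *Alb*, *Apoa1*, *Ttr*, *Tat*, *Cyp2e1* and *Serpina1a*, had summed signals of 0.129, 0.152 and 0.169, with 1, 0 and 1 of 6 well above background.

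The promoter of *Hamp* is shown because its known inputs, IL-6 acting through STAT3 and bone morphogenetic proteins, were measured on the same arrays. The sequence is that of RefSeq on GRCm38.p6, chr7:30944030-30944279, minus strand, and covers the 250 bases before the start. Capitals mark GGCGCC, which begins 109 bases before the start, and TTCNNNGAA, which begins 97 bases before it. Both are palindromes, so the strands need no separate search, and they do not overlap. The first was found in 9.59% and the second in 7.02% of the same 250 bases of all 32851 promoters, and a match describes the letters only.
Hamp promoter: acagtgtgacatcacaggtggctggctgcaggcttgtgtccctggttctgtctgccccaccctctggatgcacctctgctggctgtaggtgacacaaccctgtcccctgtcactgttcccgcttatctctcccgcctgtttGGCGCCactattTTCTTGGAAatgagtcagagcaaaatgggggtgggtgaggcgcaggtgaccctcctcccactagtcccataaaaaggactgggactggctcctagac
Of the other members, 6 had a promoter in that table (*Tfrc*, *Slc11a1*, *Fth1*, *Lcn2*, *Mt1* and *Mt2*). None of these held TTCNNNGAA, and GGCGCC was found in 1 of the promoters of *Tfrc*.

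*Tfrc*, the transferrin receptor through which cells take up transferrin-bound iron, had opposite directions with the strains. The signal of its brightest probe (chr16:32620470-32620529 on mm9, plus strand) was 3.67 with LPS alone, 3.06 after CRL1505 and 5.61 after CRL1506, and that of its other probe (chr16:32632255-32632314) was 3.60, 2.21 and 4.14. Both probes ran from CRL1505 + LPS up through LPS to CRL1506 + LPS. The log2 ratio to LPS was -0.26 for CRL1505 and 0.61 for CRL1506 with the brightest probe and -0.70 and 0.21 with the other, none of them past 2-fold. The strains differed by -0.87 and -0.91 with these probes, which agree within the SD between probes. With the brightest probe this difference lay between -1.26 and -0.38 over the other normalizations and passed 2-fold in 5 of 7. The direction for CRL1506 held in 7 of 7 other normalizations, with 0.41 to 0.70, and that for CRL1505 in 6 of 7, with -0.77 to 0.03.

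*Slc11a2* encodes DMT1, which carries ferrous iron out of endosomes, and *Slc11a1* encodes its relative NRAMP1 of the phagosome, whose allele in RAW cells is known as the non-functional one of BALB/c mice. The brightest of 4 probes of *Slc11a2* gave signals of 7.56, 11.3 and 8.19 for LPS, CRL1505 + LPS and CRL1506 + LPS, and the next one 6.99, 12.5 and 7.29. With both of these probes the CRL1505 + LPS array was the highest and the other arrays lay close together. Their log2 ratios to LPS were 0.58 and 0.84 for CRL1505, and 0.11 and 0.06 for CRL1506. The other probes of the gene, which are dimmer, had ratios of 0.00 and 0.08 for CRL1505 and 0.01 and -0.30 for CRL1506, so for CRL1505 the probes of *Slc11a2* disagree by more than the usual SD. The brightest pair has the lowest coordinates, which on the minus strand lie towards the 3′ end (chr15:100218333-100218392 and chr15:100219212-100219271 on mm9), and which transcripts each probe reads was not analysed here. *Slc11a1* had signals of 33.0, 30.8 and 38.2 and log2 ratios of -0.10 and 0.21, within the SD between probes, and the sign for CRL1505 changed in 1 of the 7 other normalizations.

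*Slc39a14* encodes ZIP14, which imports zinc and iron that is not bound to transferrin. Its single probe (chr14:70703394-70703453 on mm9, minus strand) gave signals of 0.865 with LPS alone, 1.72 after CRL1505 and 0.857 after CRL1506, so LPS and CRL1506 + LPS were alike and CRL1505 + LPS was higher. Its ratios lay at the 2-fold threshold. CRL1505 + LPS was 1.98-fold above LPS, just short of it, and 2.003-fold above CRL1506 + LPS, just past it. The log2 ratios were 0.989 and 1.002, and each passed 2-fold in 1 of the 7 other normalizations, with ranges of 0.48 to 1.28 and 0.619 to 1.498. For CRL1506 against LPS the ratio was -0.01, with a range of -0.21 to 0.07.

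The storage genes varied little. *Fth1*, the ferritin heavy chain, which oxidises the iron to be stored, gave signals of 427, 529.6 and 494 for LPS, CRL1505 + LPS and CRL1506 + LPS, with log2 ratios of 0.31 and 0.21. *Mt1* gave 209, 176 and 198 with its brightest probe, with log2 ratios of -0.24 and -0.08, and *Mt2* gave 147, 201 and 161, with 0.45 and 0.13. The metallothioneins thus had opposite signs with CRL1505, which is a gap between probes of different genes and smaller than 2-fold. A second, dimmer probe of *Mt1*, annotated to another transcript, gave 0.476, 0.375 and 0.764, with ratios of -0.34 and 0.68. The signs of *Fth1*, *Mt1* and *Mt2* for CRL1505 depended on the normalization, as did those of *Mt1* and *Mt2* for CRL1506. For *Fth1* the log2 ratio ran from -0.20 to 0.61 for CRL1505, for *Mt1* from -0.75 to 0.05 and for *Mt2* from -0.06 to 0.75.

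**Figure D2:**
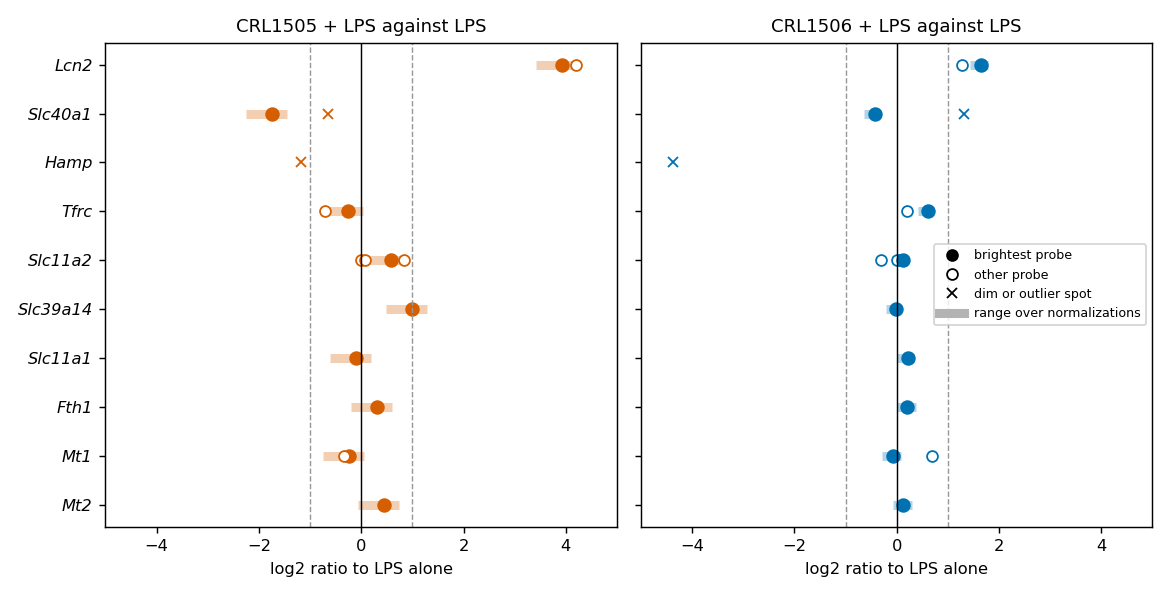
log2 ratio to LPS alone of each gene in CRL1505 + LPS (left) and CRL1506 + LPS (right), 1 array each. Filled circles are the brightest probe, open circles other probes, crosses probes with a dim or outlier spot, thick bars the range of the brightest probe over 7 other normalizations, and dashed lines 2-fold. *Lcn2* lies right of 2-fold in both panels, at 3.92 and 1.64, and *Slc40a1* lies left of it for CRL1505 only, at -1.75.

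For CRL1505 against LPS, 1 of 9 genes compared was higher (*Lcn2*), where 9.83% of all genes were, and 1 was lower (*Slc40a1*), where 8.47% were. For CRL1506 against LPS, 1 of 9 was higher (*Lcn2*), beside 5.61% of all genes, and 0 were lower, beside 3.53%. These shares are near the background for a list of this size. Between the strains, 3 of 10 were higher in CRL1505 + LPS (*Lcn2*, *Hamp* and *Slc39a14*), beside 8.95% of all genes, and 1 was lower (*Slc40a1*), beside 7.43%. Without uneven spots *Hamp* dropped out of this count. The split was 2 higher and 2 lower in 5 of the 7 other normalizations, in which *Slc39a14* dropped out and *Tfrc* came in, 3 and 0 with the median shift, and 2 and 1 with normexp background correction. The median log2 ratio of the list was 0.31 for CRL1505, 0.13 for CRL1506 and 0.21 between the strains, where all genes had 0.01, -0.06 and 0.03. The median size of the log2 ratio, regardless of sign, was 0.45, 0.21 and 0.67, where all genes had 0.41, 0.26 and 0.42. The split of all genes depended on the scaling. For CRL1505 1517 genes were higher and 1307 lower, but 2371 and 758 with a shift by the median of each array and 778 and 3160 with a shift by its spike-in probes. For CRL1506 903 were higher and 568 lower, but 656 and 864, and 740 and 718, in these settings, and 821 and 784 after quantile normalization. Among genes well above background, CRL1505 had a median log2 ratio of 0.06 and CRL1506 one of -0.07. The median shift turned these into 0.35 and -0.27, and the spike-in probes into -0.45 and -0.19.

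The other genes of iron and metal metabolism were taken from 10 lists with 105 genes, of which 103 were on the array. For CRL1505, 83 could be compared, and 4 were higher and 5 lower by 2-fold or more. For CRL1506, 86 could be compared, and 2 were higher and 2 lower. The median log2 ratio over these genes was 0.10 and -0.07. None of these counts exceeds the share among all genes given above. With the median shift 9 were higher and 1 lower for CRL1505, and with the spike-in probes 4 and 15. Between the strains, 85 could be compared. Of these, 4 were higher in CRL1505 + LPS (*Cp*, *Atp7b*, *Slc30a1* and *Pcbp2*, with 1.81, 2.65, 1.12 and 1.06 on the log2 scale), beside 8.95% of all genes, and 1 was lower (*Alad*, with -1.03), beside 7.43%. These counts came to 16 and 0 with the median shift and to 2 and 5 with the spike-in probes. *Slc30a1*, *Pcbp2* and *Alad* are named after their values were seen, and each fell short of 2-fold in at least 1 normalization, where *Slc30a1* came down to 0.73, *Pcbp2* to 0.67 and *Alad* to -0.53.

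*Cp*, which encodes ceruloplasmin, the copper ferroxidase that works with ferroportin, had the largest ratio of these lists. Its signal was 0.400 with LPS alone, 7.35 after CRL1505 and 2.10 after CRL1506, the same order of arrays as for *Lcn2*. The log2 ratio reached 4.20 after CRL1505 and 2.39 after CRL1506, with ranges of 3.64 to 4.49 and 1.95 to 2.47 over the normalizations. The size depended on the probe, since the mean over all probes of *Cp* gave 2.17 and 1.59, and 0.57 between the strains, which is under 2-fold. *Trf*, which encodes transferrin, fell from 33.5 for LPS to 14.4 for CRL1505 + LPS and 14.3 for CRL1506 + LPS, with log2 ratios of -1.22 and -1.23. Both ratios of *Trf* use the same LPS array, and between the strains it had 0.01, with a range of -0.38 to 0.50 over the normalizations. *Lrp1*, a receptor that takes up heme bound to hemopexin, had ratios of -1.30 and -0.69, and of -0.81 and -0.29 as the mean over its probes. For CRL1505 *Trf* and *Lrp1* each passed 2-fold in 6 of the 7 other normalizations.

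The metalloreductase *Steap1* was not well above background for LPS, and its ratio is at least 1.63 on the log2 scale for CRL1505 and at least 0.92 for CRL1506. *Ltf*, which encodes lactoferrin, was well above background for CRL1506 + LPS only, with a ratio of at least 1.14 that passed 2-fold in 4 of the 7 other normalizations. Of the heme handling genes, *Slc48a1*, which carries heme out of the phagolysosome, was lower for CRL1505, with -1.10 by its brightest probe and -0.84 as the mean over its probes, and had -0.14 for CRL1506. *Hmox1*, the heme oxygenase that frees iron from heme, had -0.11 and 0.26, and the ferritin light chain *Ftl1* had 0.10 and 0.11.

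None of the ZIP importers, *Slc39a14* included, and none of the ZnT exporters passed 2-fold against LPS. All 7 ZnT exporters compared had ratios above 0 for CRL1505, with a median of 0.54, where 50.5% of all genes had, but 4 of the 7 did with the spike-in probes, and 3 passed 2-fold with the median shift. For CRL1506 2 of 7 had ratios above 0, with a median of -0.14, where 42.6% of all genes had. The ZnT list is pointed out after the values of all 10 lists were seen, and other lists leaned as well. For CRL1505, 3 of 16 heme handling genes had ratios above 0, with a median of -0.18. Of the genes of mitochondrial iron and Fe-S assembly 10 of 14 did, with a median of 0.16. *Slc39a8*, the closest relative of *Slc39a14*, had 0.10 and 0.02. *Mtf1*, the zinc sensor that drives metallothionein genes, had 0.11 and 0.29. *Mt4*, a metallothionein of squamous epithelium, was dim, with signals of 0.215, 0.074 and 0.066 and ratios of -1.54 and -1.71 that shrank to -0.40 and -0.83 in some normalizations. *Atp7b*, a copper exporter of the secretory pathway, had signals of 0.922 with LPS alone, 2.92 after CRL1505 and 0.466 after CRL1506. Its log2 ratios were 1.66 and -0.98.

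**Figure D3:**
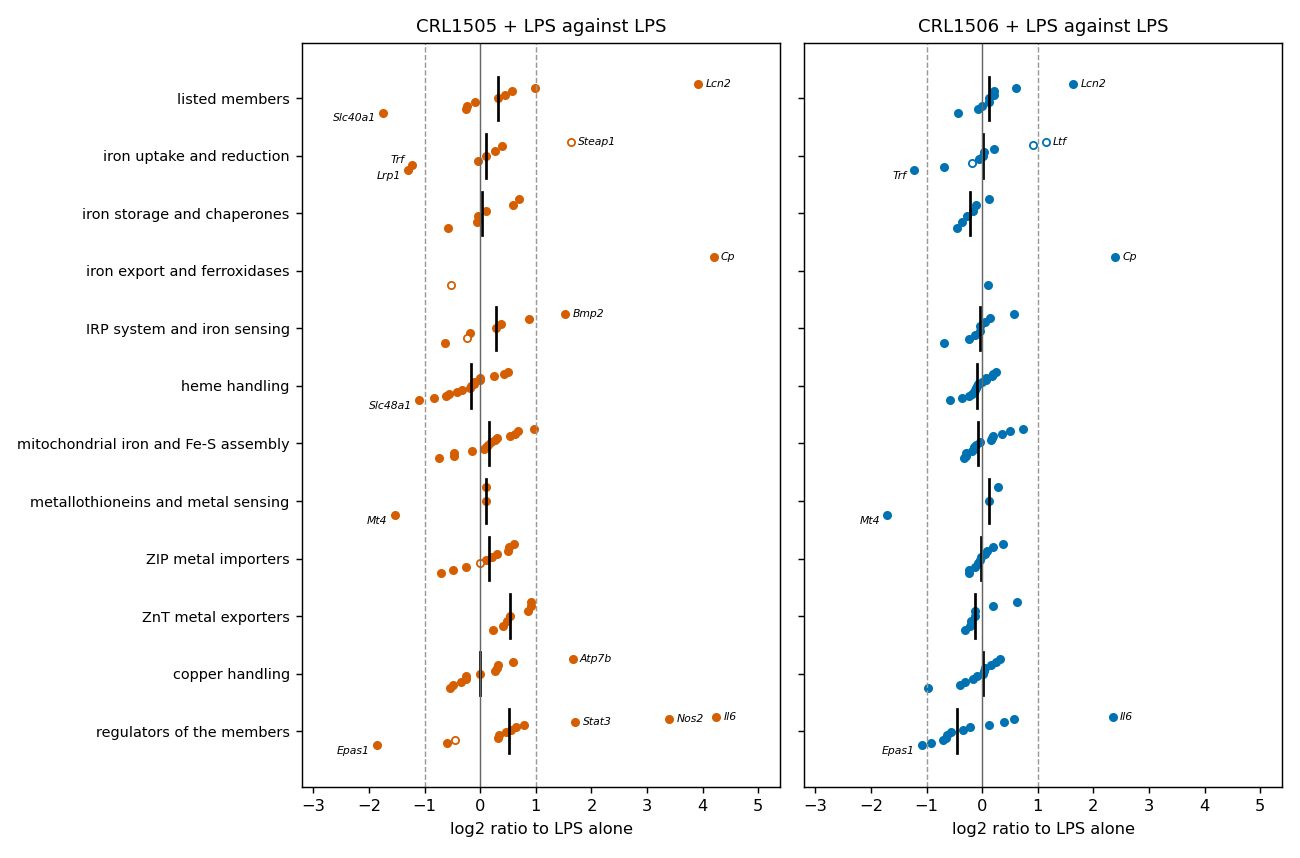
log2 ratio to LPS alone of genes compared in each list for CRL1505 + LPS (left) and CRL1506 + LPS (right), 1 array each. Each point is a gene, open points are bounds, black bars are medians of lists with more than 2 genes, dashed lines mark 2-fold, and the genes drawn past it are named. *Cp* and *Lcn2* stand furthest right among the iron and metal genes for both strains.

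Regulators of these genes were measured on the same arrays. *Il6*, the cytokine that induces hepcidin in the liver, had signals of 7.87, 149.7 and 40.1 for LPS, CRL1505 + LPS and CRL1506 + LPS, with log2 ratios of 4.25 and 2.35. *Stat3*, which acts downstream of it, had ratios of 1.71 and 0.57, but of 1.05 and 0.87 as the mean over its probes. *Bmp2*, a ligand that raises hepcidin, was dim and had 1.53 and 0.58. *Nos2*, whose product nitric oxide alters the iron regulatory proteins, had signals of 4.74, 49.9 and 2.92, with ratios of 3.40 for CRL1505 and -0.70 for CRL1506. *Epas1*, the HIF subunit that drives *Slc40a1* and *Slc11a2* in the gut, was lower with both strains, with ratios of -1.86 and -1.08, the latter past 2-fold in 4 of the 7 other normalizations. *Cebpb*, *Cebpd* and *Nfkbiz*, known to act on the *Lcn2* gene, had 0.56, 0.32 and 0.47 for CRL1505 and -0.35, -0.92 and -0.65 for CRL1506, all within 2-fold. For CRL1506 *Cebpd* passed 2-fold in 2 of the 7 other normalizations. Between the strains *Cebpb*, *Cebpd* and *Nfkbiz* had 0.91, 1.24 and 1.12, past 2-fold in 1, 3 and 2 of these 7. The hypoxia factor *Hif1a* had 0.64 and -0.23, and *Myc*, which drives *Tfrc*, 0.34 and -0.56. The ratios of *Nfe2l2* and *Bach1*, which act in opposite ways on *Slc40a1*, *Fth1* and *Hmox1*, were -0.59 and 0.79 for CRL1505 and -0.63 and 0.12 for CRL1506. Of the 12 regulators, 3 were at least 2-fold higher and 1 lower for CRL1505, where 9.83% and 8.47% of all genes were, and 1 higher and 1 lower for CRL1506, where 5.61% and 3.53% were. Between the strains 5 were higher in CRL1505 + LPS and 0 lower, beside 8.95% and 7.43% of all genes. With quantile normalization 2 of the 12 were higher and 0 lower, and with the median shift 9 and 0. The spike-in probes gave 2 higher and 2 lower, and the 75th percentile over detected probes only gave 3 and 1.

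Since lipocalin-2 is also a granule protein of neutrophils, their markers were examined beside it. The summed signal of 7 such markers was 39.0 with LPS alone, 40.7 after CRL1505 and 72.7 after CRL1506, of which *Csf3r*, which macrophages also express, made up 37.5, 39.3 and 71.5. The sum for LPS alone lacks *Ly6g*, which had no usable spot on that array. The granule gene *Ngp* had signals of 0.075, 0.132 and 0.025, and *Mpo* of 0.069, 0.045 and 0.138. *Elane* had 0.883, 0.720 and 0.746, and *Camp* 0.395, 0.288 and 0.264, both highest with LPS alone. *Cxcr2* had 0.070, 0.012 and 0.071, and *Ly6g*, whose LPS spot was an outlier, had 0.245 after CRL1505 and 0.050 after CRL1506. Of these values, those of *Ngp* and *Ly6g* for CRL1506 + LPS and of *Mpo* and *Cxcr2* for CRL1505 + LPS were not well above background. The cultures were of a single macrophage line, so these marker values describe transcripts of that line. Their relation to the *Lcn2* result was not tested. The erythroid markers had 2, 1 and 2 of 6 genes well above background, with summed signals of 0.225, 0.275 and 0.205. The lymphocyte markers had 3, 2 and 2 of 6 with summed signals of 1.41, 1.21 and 1.47, and the epithelial and fibroblast markers 1, 1 and 3 of 7 with 0.403, 0.273 and 0.399.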

How the data were processed

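The authors deposited for each array the spot intensity values of the Feature Extraction software (12.0.3.1 in the files), with local background subtracted and no normalization between arrays. A further table that the authors deposited holds log2 values normalized between arrays and served as an alternative here. Depth is set by the arrays: 54.5%, 48.5% and 55.3% of 59305 gene spots were well above background for LPS, CRL1505 + LPS and CRL1506 + LPS, and with 1 array per group their number limits the precision. No gene spot was saturated.

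From each log2 signal the 75th percentile of the array's gene spots was subtracted (a signal of 743.1, 517.0 and 697.9). Outlier spots (467, 241 and 274) were left out, and a gene was represented by its brightest probe, preferring probes measured on all arrays. If either side of a ratio failed to be well above background, the ratio is a bound against the higher of the lowest signal well above background on that array and the spot's own signal, and genes dim on both sides were left out. A gene was counted at 2-fold, the threshold of the methods, and their t-test could not be run on 1 array per group. The methods applied this threshold against cells without LPS, so the counts here belong to other comparisons.

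The members and lists were chosen with earlier results of these data known. Named are all members, the pathway genes past 2-fold against LPS (14, of which 1 enters the counts but is not reported here), *Hmox1*, *Ftl1*, *Mtf1* and *Slc39a8*, and regulators well above background on all arrays. The alternatives comprised 7 normalizations (shift by the median, quantile, cyclic loess, the 75th percentile over detected probes only, spike-in probes, normexp with offset 50, and the deposited log2 table), other filters on dim, outlier and uneven spots, the mean over probes, and thresholds of 1.5-fold and 4-fold. Probe positions are those of the files (mm9), and promoters are from RefSeq (GRCm38.p6), where 7 of 10 members matched by symbol and *Slc40a1*, *Slc11a2* and *Slc39a14* did not. Calculations ran in R 4.3.3 (limma 3.58.1) and Python 3.11.15 (NumPy 2.4.6, pandas 2.3.3), and the procedure was tested on simulated data.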

Additional observations from a re-analysis of the deposited data

Results flagged for a closer look

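Among the members, the pathway genes and the regulators named in the report, the following had ratios to LPS of opposite signs with the strains, each beyond the SD between probes of a gene. With 1 array per condition, these differences were not tested. The log2 ratio of *Tfrc* was -0.26 after CRL1505 and 0.61 after CRL1506. That of *Nos2* was 3.40 and -0.70, that of *Atp7b* 1.66 and -0.98, and that of *Pcbp2* 0.70 and -0.36. Among the factors that act on *Lcn2*, *Cebpb* had 0.56 and -0.35, *Cebpd* 0.32 and -0.92, and *Nfkbiz* 0.47 and -0.65. *Hif1a* had 0.64 and -0.23, and *Myc* 0.34 and -0.56. The signs of *Tfrc*, *Cebpd*, *Nfkbiz* and *Myc* for CRL1505 each changed in 1 of 7 other normalizations. As the mean over all probes, *Hif1a* had 0.40 for CRL1506 and *Myc* -0.12 for CRL1505, so that their strains no longer differed in sign.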

How the results depend on the processing

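Over 14 alternatives, the number of members past 2-fold stayed within 1.5 times its main value (2 for CRL1505 against LPS, 1 for CRL1506 against LPS and 4 between the strains) except as follows. A 4-fold threshold left 1, 0 and 2 members. For CRL1506 against LPS, keeping outlier spots gave 2 members, since *Hamp* was added, and a 1.5-fold threshold also gave 2. No called value changed sign. Called values are at least 2-fold, and no scaling moved the median of all genes by as much, so such a change was unlikely from the start. Of the single values of members and named genes under the alternatives, 1110 moved by less than the SD between probes and 210 by more, of which 74 each came from the median shift and the spike-in scaling. Leaving out uneven spots, or probes that were dim on any array, moved none of the values these settings could give. This is no check of the values, since the scaling stays the same and a remaining brightest probe gives its main ratio again. These settings gave 106 and 105 of the 1110 values, and keeping outlier spots gave 111. *Hamp* had no value with uneven spots or dim probes left out, or as a mean over probes. No paired analysis was possible because each group has 1 array. Ratios of dim probes (*Hamp*, *Mt4*, *Steap1*, *Ltf*, *Bmp2*) are limited by their signal over background.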
